A study of Mus musculus with 8 samples.

Results

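The genes described here are 7 annexins (*Anxa1*, *Anxa2*, *Anxa4*, *Anxa5*, *Anxa6*, *Anxa8* and *Anxa11*) and 3 S100 genes (*S100a1*, *S100a4* and *S100b*). They were taken by gene symbol from the 52325 gene identifiers of each library, each identifier counted once, and all 10 were found and passed the filter on low values. RNA-seq was performed on costal (rib) chondrocytes, the cells of rib cartilage, released by collagenase from 7-d-old mice. There were 4 wild-type libraries and 4 *Mir140*-null libraries on a C57BL/6J background, and the null mice carry a CRISPR/Cas9 deletion of the *Mir140* locus in every cell, not in cartilage alone. Both genotypes descend from crosses of heterozygous mice, whose founders had a mixed C57BL/6 and CBA/ca background before they were bred to C57BL/6J. The crosses led to a wild-type and a null line, so line and genotype cannot be told apart here. The labels say only that the 4 libraries of a genotype are separate samples, so the p-values measure the spread between these samples. Values are TPM, transcript abundances that add up to 1000000 in every library, which are scaled for transcript length and can be compared between genes of the same library.

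Annexins bind acidic phospholipids at the inner face of membranes when calcium rises, and act in vesicle traffic, membrane repair and, in mineralizing cartilage, in the matrix vesicles that growth plate chondrocytes shed. S100 proteins are small EF-hand calcium sensors that work as dimers, bind target proteins inside the cell and can signal outside it. The families meet in complexes such as annexin A2 with S100A10 and annexin A1 with S100A11. S100A1 and S100B are known in chondrocytes as targets of the SOX transcription factors, and S100B protein is a long-used marker of cartilage cells.

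The *Mir140* locus lies in mouse *Wwp2* and gives miR-140-5p and miR-140-3p, and the series concerns miR-140-3p forms that start 1 base apart and so carry different seeds. They are shown because the seed, bases 2 to 8 from the 5′ end, in capitals, sets which 3′UTR words each form can pair with. The string printed for miR-140-3p.2 is the RefSeq entry (GRCm38.p6, chr8:107551288-107551308, plus strand), and that for miR-140-3p.1 is this entry without its first base. The isomiRs that carry these names in the study are longer and differ at their other end too. The strings therefore show the start and the seed of each form, not its full sequence.
miR-140-3p.2: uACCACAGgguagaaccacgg
miR-140-3p.1: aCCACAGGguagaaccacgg
The matching 3′UTR words, CTGTGGT for miR-140-3p.2 and CCTGTGG for miR-140-3p.1, overlap in 6 letters and were searched on the transcript strand of each gene, in its longest annotated 3′UTR. Of 12981 tested genes with a 3′UTR, 19.0% held the former and 20.2% the latter. Among the 10 genes described, *Anxa8* held 1 of each and *Anxa11* held 1 CTGTGGT. These 3 places, the only matches among the 10 genes, are shown with the word in capitals. In order they lie at chr14:34100374-34100400, chr14:34100023-34100049 and chr14:25886542-25886568 (GRCm38, plus strand, in 3′UTR sequence).
Anxa8 with miR-140-3p.2 word: cccaagtacgCTGTGGTctgagaaact
Anxa8 with miR-140-3p.1 word: cttgcagtgtCCTGTGGgtcattcctt
Anxa11 with miR-140-3p.2 word: tgtgacggtaCTGTGGTgtctggtgaa
The other 8 genes held neither word, among them *S100a4*, whose 3′UTR is 141 bases long. Of the further annexin and S100 genes searched, *S100a16* held 2 CTGTGGT, *Anxa3* and *S100a3* 1 CTGTGGT each and *S100a14* 1 CCTGTGG. None of them was called in the test that follows. *S100a10*, *S100a11*, *S100a13* and *Anxa7*, which were called higher, held neither word. A word match is a description of the sequence and does not show that a site is used. Words for the seed of miR-140-5p, which the same locus gives, were not searched.

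The test covered 17177 genes, those that reached 0.5 TPM in 4 or more libraries, and limma (log2(TPM + 1), Benjamini-Hochberg adjusted p under 0.05) called 10.5% higher and 6.4% lower in *Mir140*-null. Each wild-type library listed 17128 to 17950 genes at or over 0.5 TPM, against 15800, 16056, 17435 and 16991 of them in *Mir140*-null replicates 1 to 4. Mitochondrially encoded genes took 4.06 to 6.98% of TPM in wild-type and 8.41 to 10.1% in *Mir140*-null, without overlap. Rescaled without these genes, *S100a4* had a log2 fold change of 1.57 (adjusted p = 0.00660) and *Anxa11* of 0.80 (adjusted p = 0.0266); the part of RNA quality was not tested. *Mir140* itself was listed at 0 TPM in 7 libraries. The exception, the library labelled *Mir140*-null replicate 2, had 8.86 TPM and goes against its label on that value, so the TPM of *Mir140* do not separate the genotypes. Cartilage genes were high in every library, the 8 chondrocyte markers summing to 58079 to 73608 TPM in the wild-type and 43371 to 61347 TPM in *Mir140*-null. Libraries of *Mir140*-null replicates 1 and 2 stood apart in the 7 markers of fibroblasts and perichondrium, which summed to 883 and 1059 TPM there, against 5632 and 4262 TPM in replicates 3 and 4 and 3537 to 6417 TPM in wild-type. Marker sums of the other cell types in wild-type and *Mir140*-null were 146 to 326 and 159 to 269 TPM for hypertrophic chondrocytes, 22.8 to 40.4 and 17.5 to 31.5 TPM for macrophages and leukocytes, 646 to 1854 and 256 to 1725 TPM for erythroid cells and 61.3 to 96.4 and 33.9 to 57.4 TPM for skeletal muscle. They were 173 to 209 and 169.6 to 418 TPM for Schwann cells, 6.02 to 22.8 and 3.98 to 28.8 TPM for endothelium, 1.12 to 3.47 and 3.66 to 8.43 TPM for neutrophils, 2.28 to 5.04 and 2.17 to 5.28 TPM for mesothelium and 0.247 to 0.828 and 0.127 to 0.405 TPM for adipocytes. The libraries are bulk RNA, in which fewer cells of a type and less RNA per cell cannot be told apart.

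*S100a4* was higher in *Mir140*-null than in wild-type by 2.94-fold of the mean TPM, *Anxa11* was higher by 1.65-fold, and the other 8 genes did not pass the test. Thus 2 of the 10 genes were called higher, against 10.5% of all tested genes, and 0 were called lower, against 6.4%. At an unadjusted p under 0.05 in limma, 3 were higher and 0 lower. The share of all tested genes at that looser threshold was not computed, so this count has no background to be read against. Every *Mir140*-null library lay above every wild-type library for 3 genes, *S100a4*, *Anxa11* and *Anxa8*, against 15.7% of all tested genes, and none lay wholly below, against 10.2%. Across the 10 genes the median log2 fold change was 0.08, and across all tested genes it was -0.01. Of the 10, 6 were above 0, against 49.3% of all tested genes.

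**Figure D1:**
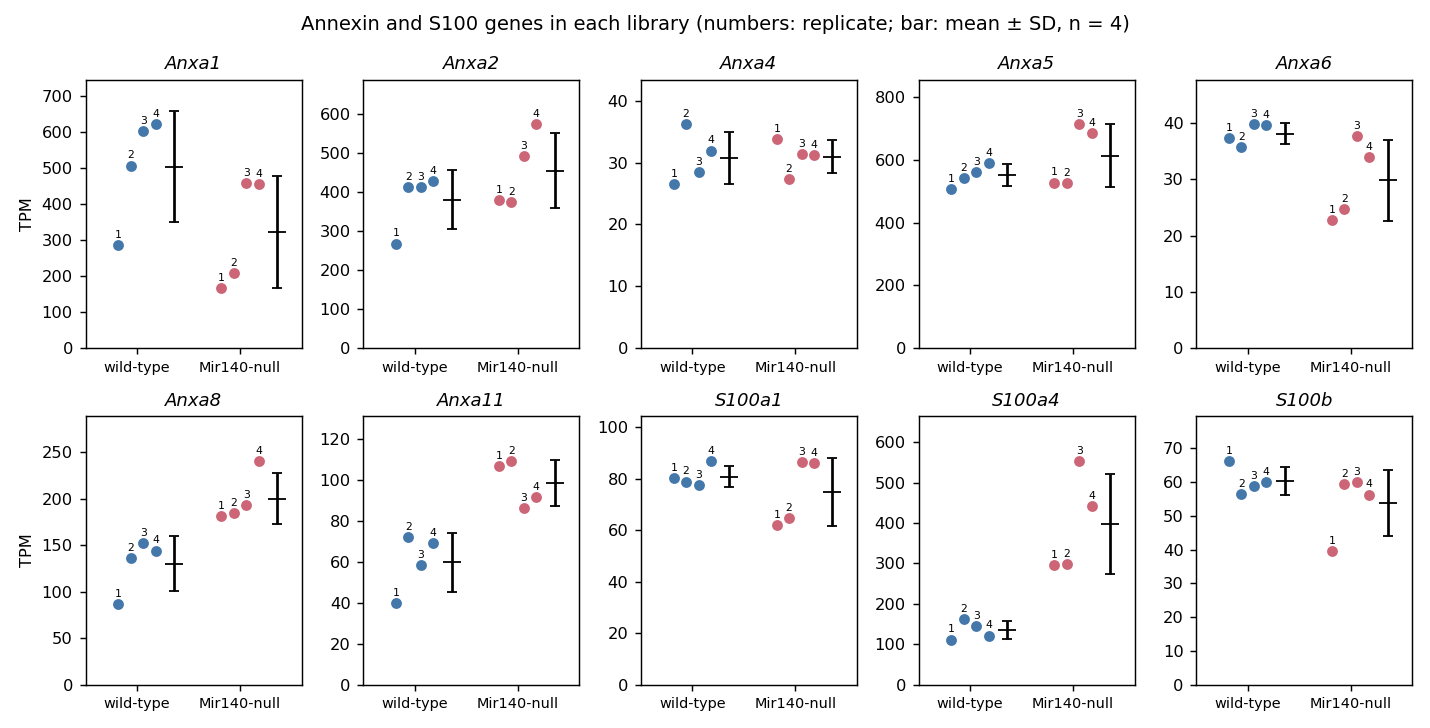
TPM (y axis, from 0) of each of the 10 genes in the 4 wild-type (blue) and 4 Mir140-null (red) libraries, with the replicate number at each point and the mean ± SD of each genotype as a bar. S100a4, Anxa8 and Anxa11 do not overlap between genotypes, and Mir140-null replicates 1 and 2 lie below the wild-type libraries for Anxa1, Anxa6 and S100a1.

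*S100a4* (ENSMUSG00000001020, chr3:90603771-90606045, plus strand) encodes the S100 protein that binds non-muscle myosin IIA and is known for cell motility and metastasis. Its TPM were 112, 162, 144 and 122 in wild-type replicates 1 to 4. In *Mir140*-null replicates 1 to 4 they were 297, 298, 553 and 443. The lowest *Mir140*-null library was therefore above the highest wild-type library, and among the null libraries replicates 3 and 4 were higher than replicates 1 and 2. The mean rose from 135 ± 22.7 to 398 ± 124 TPM (SD, n = 4), which is 1.51 as a log2 fold change of TPM + 1 (SE 0.23, 95% interval 0.998 to 2.03, limma adjusted p = 0.00831). A log2 fold change of 1.5 or more was seen in 1.18% of all tested genes. *Gm42674*, annotated over *S100a4* on the same strand, was at a mean of 1.15 TPM in the wild-type and 0.827 TPM in *Mir140*-null. The call was made in 20 of 20 alternative analyses, with log2 fold changes of 1.15 to 1.88, and without the library labelled *Mir140*-null replicate 2 it was 1.63 (adjusted p = 0.0221).

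*S100a4* is also used as a marker of fibroblasts and leukocytes. *Mir140*-null replicates 1 and 2 had the lowest fibroblast marker sums of the 8 libraries, and *S100a4* in them was 2.20-fold the wild-type mean, against 3.68-fold in replicates 3 and 4. With the mean of the 7 fibroblast markers as a covariate, an alternative chosen after seeing the data, the log2 fold change of *S100a4* was 1.80 (adjusted p = 0.00659). Of the 6 macrophage and leukocyte markers, 3 were tested in limma, and 0 of the 3 were higher, also at an unadjusted p under 0.05. The 1 called lower was *Itgam* (log2 fold change -0.77, limma adjusted p = 0.0165). *Ptprc*, the pan-leukocyte phosphatase CD45, was not tested and was at most 0.590 TPM. *Camp*, a neutrophil granule gene, was higher in *Mir140*-null at 6.54, 3.54, 3.59 and 2.94 TPM against 0.462, 1.36, 1.99 and 1.10 TPM (log2 fold change 1.21, limma adjusted p = 0.0238). It was the 1 neutrophil marker called of the 2 tested in a list of 6. *Ltf*, the other one tested, had a log2 fold change of -0.20 (limma adjusted p = 0.752). Mean TPM of the untested markers in wild-type and *Mir140*-null were 0.161 and 0.292 for *Ngp* and 0.214 and 0.0503 for *Mpo*. They were 0.199 and 0.111 for *Retnlg* and 0.0284 and 0 for *Elane*. The part of *Camp* in the *S100a4* result was not tested.

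The *S100a4* promoter holds the word TATAAA, the consensus of the TATA box, between 40 and 15 bases before the annotated start, which is present in 2.11% of the 32851 RefSeq promoters searched on the sense strand. *Anxa1* and *Anxa2* were the other genes of the 10 that had it, with *Anxa6* not in the promoter table. The 30 bases around each are shown to set the 3 genes side by side, with the word in capitals, on the strand of the gene (GRCm38.p6; chr3:90603727-90603756 plus, chr19:20390686-20390715 minus and chr9:69453654-69453683 plus).
S100a4 promoter: ggcctggcagggTATAAAtaggtcagattg
Anxa1 promoter: cagttcatatccTATAAAatcaggagtcca
Anxa2 promoter: ggatggggcgggTATAAAagccccacccag
Of the 3 genes, *S100a4* was called higher in *Mir140*-null, and *Anxa1* and *Anxa2*, with log2 fold changes of -0.72 and 0.26, were not called. The core word of SOX binding, ACAAT or its reverse complement ATTGT, occurred in the promoters of *S100a4* and *Anxa11* and in 1 of the 2 promoters listed for *Anxa4*, against 31.0% of all promoters, and in none listed for *S100a1* or *S100b*.

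*Anxa11* (ENSMUSG00000021866, chr14:25842156-25886804, plus strand) encodes the annexin that tethers RNA granules to lysosomes and binds the calcium sensor ALG-2. Wild-type replicates 1 to 4 had 40.0, 71.8, 58.3 and 69.0 TPM. *Mir140*-null replicates 1 to 4 had 107, 109, 86.3 and 91.7 TPM. All null libraries were above all wild-type libraries, and replicates 1 and 2 were the highest, the reverse of the order in *S100a4*. The mean rose from 59.8 ± 14.4 to 98.4 ± 11.2 TPM (SD, n = 4; log2 fold change 0.74, SE 0.19, 95% interval 0.30 to 1.17, limma adjusted p = 0.0351). The call was less stable than that of *S100a4*. It was lost without wild-type replicate 3 (adjusted p = 0.0812) or 4 (0.0567), and without *Mir140*-null replicate 1 (0.0816), the library labelled *Mir140*-null replicate 2 (0.0893) or *Mir140*-null replicate 4 (0.0565), while the log2 fold change stayed between 0.56 and 0.84. Without both *Mir140*-null replicates 1 and 2 it was 0.60 (adjusted p = 0.200), and with the fibroblast covariate 0.59 (adjusted p = 0.111). The antisense RNA *Anxa11os*, annotated on the other strand of the locus, had a mean of 1.06 TPM in the wild-type and 0.908 TPM in *Mir140*-null.

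*Anxa8* (ENSMUSG00000021950, chr14:34085981-34100571, plus strand), an annexin of late endosomes, narrowly missed the threshold. Its TPM were 86.8, 136, 152 and 144 in wild-type and 181, 185, 193 and 240.1 in *Mir140*-null. The groups did not overlap, and the largest gap inside a group was between wild-type replicate 1 and the other 3. The means were 129.8 ± 29.4 and 199.8 ± 27.3 TPM (SD, n = 4; log2 fold change 0.64, SE 0.19, 95% interval 0.21 to 1.08, limma adjusted p = 0.0519). Rescaling by the median ratio of genes brought the adjusted p to 0.0328, and it was under 0.05 in 5 of 20 alternatives, with log2 fold changes of 0.46 to 0.76 over all 20.

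*Anxa1* (ENSMUSG00000024659, chr19:20373428-20390944, minus strand) encodes annexin A1, the glucocorticoid-induced anti-inflammatory protein also called lipocortin. Wild-type replicates 1 to 4 had 286, 507, 603 and 621 TPM, the widest spread of the 10 genes in wild-type. *Mir140*-null replicates 1 to 4 had 168, 209, 458 and 455 TPM. The null libraries fell into a low and a high pair, and the high pair lay inside the wild-type range. The log2 fold change of -0.72 did not pass the test (SE 0.40, 95% interval -1.63 to 0.18, limma adjusted p = 0.237). Relative to the wild-type mean of 504 ± 154 TPM, the mean of replicates 1 and 2 was 0.373-fold and that of replicates 3 and 4 was 0.905-fold.

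The low pair was the pair with few fibroblast transcripts. *Col1a1*, a chain of collagen I, had 47.8, 50.1, 1326 and 898 TPM in null replicates 1 to 4, against 1544, 793, 1483 and 856 TPM in wild-type. *Col3a1*, the collagen III chain, was at 100.02, 104, 1554 and 901 TPM in *Mir140*-null and 1562, 880.1, 1791 and 944 TPM in wild-type. The list as a whole did not move 1 way, since *Pdgfra*, a fibroblast receptor, was called higher (log2 fold change 1.03), *Dcn*, the proteoglycan decorin, was called lower (-0.47), and 5 of 7 were not called. With the mean of the 7 markers as a covariate the log2 fold change of *Anxa1* was -0.24 (adjusted p = 0.681). Without *Mir140*-null replicates 3 and 4, an alternative chosen after seeing the data, the log2 fold change of *Anxa1* was -1.36 (adjusted p = 0.0338), and without replicates 1 and 2 it was -0.08 (adjusted p = 0.904).

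**Figure D2:**
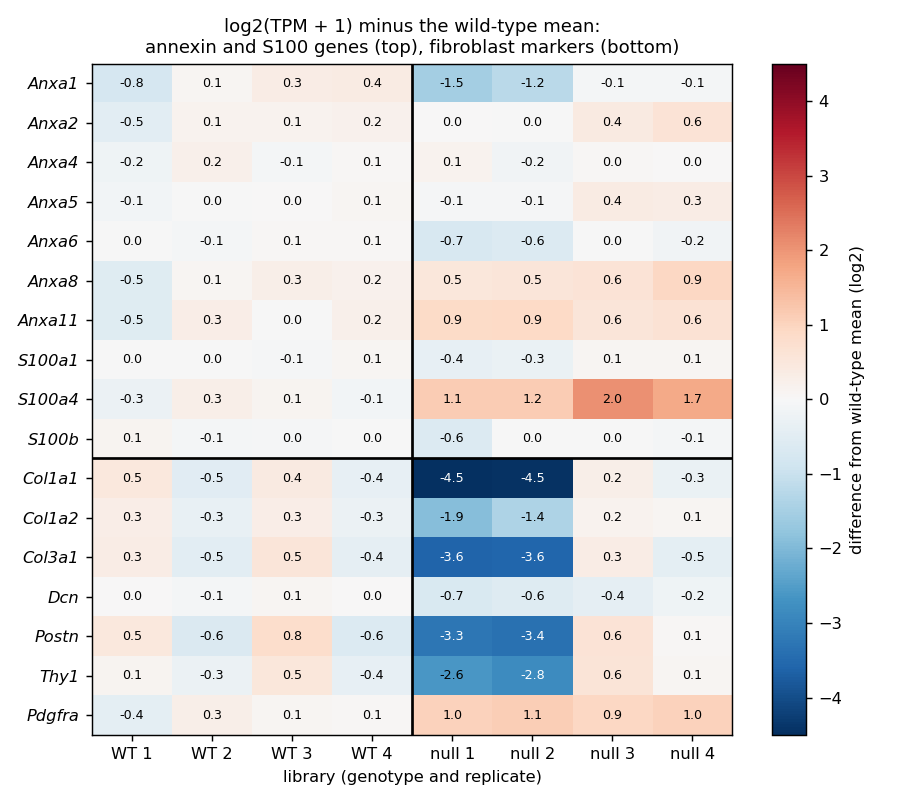
Difference of log2(TPM + 1) from the wild-type mean in each library (columns) for the 10 annexin and S100 genes (upper rows) and the 7 fibroblast and perichondrium markers (lower rows), with colour and printed number both giving the difference. Mir140-null replicates 1 and 2 are low for 6 of the 7 markers and for Anxa1, Anxa6 and S100a1, while S100a4, Anxa8 and Anxa11 are above the wild-type mean in all 4 null libraries.

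*Anxa6* (ENSMUSG00000018340, chr11:54979108-55033445, minus strand), which links membranes to the actin cytoskeleton and is found in matrix vesicles, showed the same split. Its TPM were 37.3, 35.8, 39.7 and 39.7 in wild-type, a narrow range, and 22.8, 24.8, 37.7 and 33.9 in *Mir140*-null. Replicates 1 and 2 lay below every wild-type library, replicate 4 lay just below the wild-type range, and replicate 3 lay inside it. The means of 38.1 ± 1.93 and 29.8 ± 7.18 TPM (SD, n = 4) gave a log2 fold change of -0.37 (SE 0.17, 95% interval -0.76 to 0.01, limma adjusted p = 0.157). As for *Anxa1*, the value depended on which null libraries were used, with -0.66 without replicates 3 and 4 (adjusted p = 0.0129) and -0.09 without replicates 1 and 2 (adjusted p = 0.643). With the fibroblast covariate it was -0.14 (adjusted p = 0.384).

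*S100a1* (ENSMUSG00000044080, chr3:90511034-90514392, minus strand), best known as a regulator of calcium handling in heart muscle, was at 80.1, 78.8, 77.5 and 86.8 TPM in wild-type. In *Mir140*-null it was at 62.0, 64.7, 86.6 and 86.2 TPM. Replicates 1 and 2 were again below the wild-type range and replicates 3 and 4 were inside it. The difference was -0.12 on the log2 scale (SE 0.13, 95% interval -0.43 to 0.18, limma adjusted p = 0.550), and 0.04 (adjusted p = 0.820) with the fibroblast covariate. Skeletal muscle markers summed to 61.3 to 96.4 TPM in wild-type and 33.9 to 57.4 TPM in *Mir140*-null, and their part in the *S100a1* values was not tested.

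*S100b* (ENSMUSG00000033208, chr10:76253853-76261159, plus strand), shared by cartilage and glial cells, did not follow that split. Its TPM were 66.2, 56.5, 58.8 and 60.0 in wild-type and 39.5, 59.4, 60.0 and 56.3 in *Mir140*-null. *Mir140*-null replicate 1 was the lowest of all libraries, replicate 4 lay just under the wild-type range, and the other 2 null libraries lay inside it. The log2 fold change was -0.18 (SE 0.15, 95% interval -0.52 to 0.16, limma adjusted p = 0.418). The 3 SOX genes that act on *S100a1* and *S100b* in chondrocytes were not called either, with log2 fold changes of 0.16 for *Sox5*, -0.07 for *Sox6* and 0.25 for *Sox9* (limma adjusted p = 0.531, 0.860 and 0.389, with 0 of 3 at an unadjusted p under 0.05). Of 6 Schwann cell markers, 5 were tested and 0 were called in limma, with 0 of 5 at an unadjusted p under 0.05.

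*Anxa5* (ENSMUSG00000027712, chr3:36448923-36475894, minus strand) encodes annexin A5, the phosphatidylserine-binding protein abundant in cartilage matrix vesicles. It was at 508, 543, 562 and 591 TPM in the wild-type and 528, 527, 714 and 687 TPM in *Mir140*-null. Replicates 1 and 2 lay inside the wild-type range and replicates 3 and 4 above it. The log2 fold change of 0.14 (SE 0.13, 95% interval -0.15 to 0.44, limma adjusted p = 0.462) did not pass the test.

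*Anxa2* (ENSMUSG00000032231, chr9:69453620-69491795, plus strand) encodes annexin A2, a plasminogen and tissue plasminogen activator receptor at the cell surface. It was at 267, 413, 413 and 428 TPM in the wild-type and 379, 373, 491 and 573 TPM in *Mir140*-null. Wild-type replicate 1 was low, replicates 3 and 4 of the null were above the wild-type range, and the groups overlapped (log2 fold change 0.26, SE 0.20, 95% interval -0.20 to 0.71, limma adjusted p = 0.398).

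*Anxa4* (ENSMUSG00000029994, chr6:86736840-86793584, minus strand), an annexin that aggregates membranes, was at 26.5, 36.2, 28.4 and 32.0 TPM in the wild-type and 33.8, 27.4, 31.4 and 31.2 TPM in *Mir140*-null. All null libraries lay inside the wild-type range, and the log2 fold change of 0.01 had a 95% interval of -0.27 to 0.30 (SE 0.13, limma adjusted p = 0.947).

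In wild-type chondrocytes the 10 genes spanned an order from *Anxa5* at 551 ± 35.2 TPM (SD, n = 4), rank 248 of the 52325 identifiers, to *Anxa4* at 30.8 ± 4.26 TPM, rank 2976. *Anxa5*, *Anxa1* and *Anxa2* formed the upper group, in which the ranges of neighbours overlapped and all libraries lay above those of *S100a4*. *S100a4* (rank 782), *Anxa8* (807) and *S100a1* (1259) came next with overlapping ranges, then *S100b* (1660) and *Anxa11* (1675), which differed by less than their spread, and last *Anxa6* (2493) and *Anxa4*. In *Mir140*-null the order was *Anxa5*, *Anxa2*, *S100a4*, *Anxa1* and *Anxa8*, each overlapping its neighbour, then *Anxa11* and *S100a1*, then *S100b*, then *Anxa4* and *Anxa6*. The TPM of *S100a4* lay below those of *Anxa2* in wild-type without overlap, and the ranges of both genes overlapped in *Mir140*-null.

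Ratios of genes within a library do not depend on scaling between libraries, and are given as a description. *Anxa1* over *Anxa2* was 1.07 to 1.46 in wild-type and 0.443 to 0.932 in *Mir140*-null, so *Anxa1* was the more abundant in every wild-type library and *Anxa2* in every null library. *S100a4* over *S100a6*, which lies close to it on chromosome 3, was 0.152 to 0.171 in wild-type and 0.292 to 0.429 in *Mir140*-null. *S100a4* over *S100a1* was 1.40 to 2.06 and 4.61 to 6.38. These 3 ratios did not overlap between genotypes. Nor did *Anxa11* over *Anxa4*, at 1.51 to 2.16 and 2.75 to 3.98. *S100a4* and *Anxa11* did not overlap on their own either, so their ratios are not separate results. The genes in these ratios were chosen with earlier results of these data known, and the share of all gene pairs without overlap was not computed. *Anxa1* over *Anxa5* overlapped, at 0.563 to 1.07 and 0.318 to 0.663. *Anxa2* over *S100a10*, its partner in the annexin A2 tetramer, was 0.606 to 0.798 in wild-type and 0.386 to 0.628 in *Mir140*-null, with a small overlap, and *S100a1* over *S100b* overlapped widely at 1.21 to 1.45 and 1.09 to 1.57. The 12 listed annexins made up 0.132 to 0.204% of all TPM in the wild-type and 0.155 to 0.229% in *Mir140*-null, while the 16 listed S100 genes in the files made up 0.168 to 0.226% and 0.273 to 0.362%, without overlap.

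**Figure D3:**
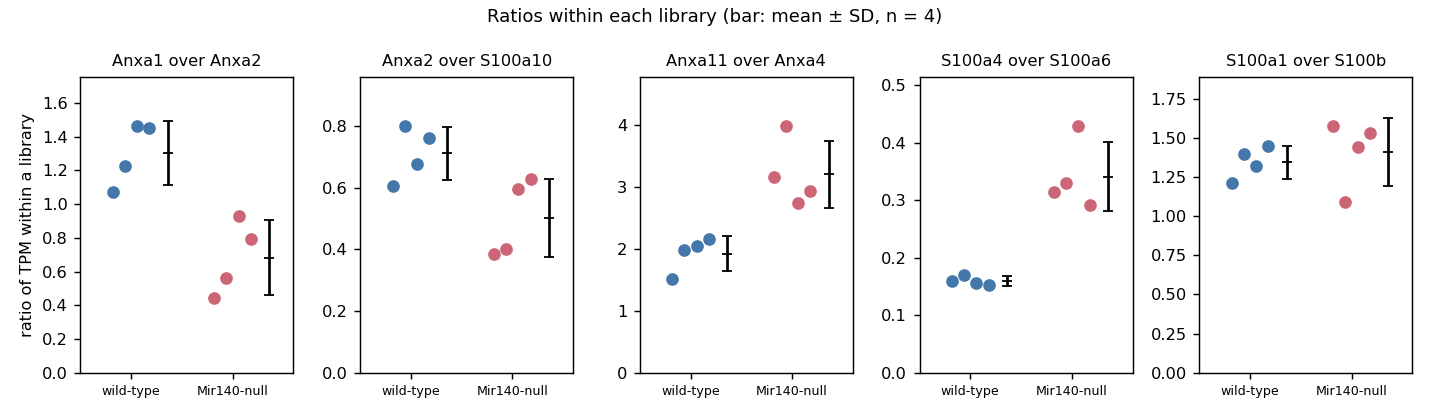
Ratio of the TPM of the gene pair named above each panel (y axis, from 0) in each of the 4 wild-type (blue) and 4 Mir140-null (red) libraries, with the mean ± SD as a bar. Anxa1 over Anxa2, Anxa11 over Anxa4 and S100a4 over S100a6 do not overlap between genotypes, while Anxa2 over S100a10 and S100a1 over S100b do.

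The families hold further genes, taken from a list of 5 other annexins and 14 other S100 genes. *S100a2*, an S100 gene that was called lower, is not on the list or in its counts and is described with the cluster below. Of these, 3 annexins and 11 S100 genes passed the filter on low values, 4 were called higher in *Mir140*-null and 0 lower in limma, against 10.5% and 6.4% of all tested genes, with 0 lower at an unadjusted p under 0.05. *S100a10*, the S100 light chain of annexin A2, which does not bind calcium, had 441, 517, 609 and 562 TPM in the wild-type and 980.4, 928, 826 and 912 TPM in *Mir140*-null. The groups did not overlap (log2 fold change 0.78, SE 0.12, adjusted p = 0.00833), and the call was lost in 1 of 20 alternatives, without *Mir140*-null replicates 1 and 2 (adjusted p = 0.0582). *S100a13*, which takes part in the release of FGF1 and interleukin 1 alpha, rose from 32.5, 33.7, 33.4 and 37.9 TPM to 67.6, 56.5, 58.5 and 54.3 TPM (log2 fold change 0.77, SE 0.10, adjusted p = 0.00651) and was called in all 20 alternatives. *S100a11*, the partner of annexin A1, was at 169.7, 245, 259 and 236 TPM and 327, 293, 363 and 376 TPM (log2 fold change 0.59, SE 0.15, adjusted p = 0.0353). *Anxa7*, known as synexin, was at 39.4, 65.7, 61.7 and 61.1 TPM and 80.0, 84.4, 83.2 and 101 TPM (log2 fold change 0.63, SE 0.17, adjusted p = 0.0422). Both were without overlap, but their calls were fragile: that of *S100a11* was lost in 7 of 8 fits that each left out 1 library (adjusted p 0.0549 to 0.0737) and that of *Anxa7* in 7 of 8 fits that each left out 1 library (adjusted p 0.0522 to 0.0889), and for both only the fit without wild-type replicate 1 kept it.

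The other genes of this list were not called. *S100a6*, calcyclin, the most abundant S100 gene at 845 ± 115 TPM in the wild-type and 1164 ± 292 TPM in *Mir140*-null (SD, n = 4), had a log2 fold change of 0.44 (limma adjusted p = 0.143). *Anxa3* was at 38.8 ± 9.38 and 60.0 ± 13.7 TPM (0.62, adjusted p = 0.0916), and *S100a16* at 69.6 ± 14.1 and 93.6 ± 15.8 TPM (0.43, adjusted p = 0.146). The myeloid genes *S100a8* and *S100a9*, which encode calprotectin, were low, at a mean of 0.587 and 1.44 TPM in the wild-type and 0.779 and 3.22 TPM in *Mir140*-null. The remaining tested genes, *S100a3*, *S100a5*, *S100a7a*, *S100a14* and *Anxa13*, had log2 fold changes of -0.23 to 0.26, and *Anxa9*, *Anxa10*, *S100g* and *S100z* were too low to be tested. *S100a7l2* was not analysed here.

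**Figure D4:**
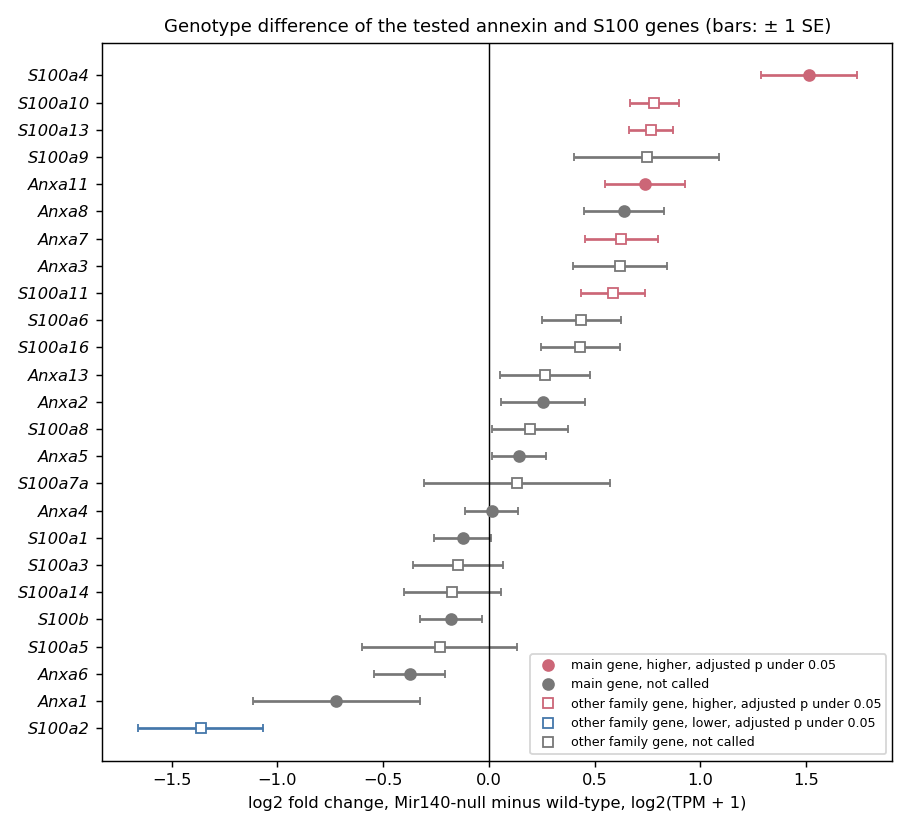
Log2 fold change (x axis, Mir140-null minus wild-type on log2(TPM + 1), bars ± 1 SE) of the tested annexin and S100 genes, with filled circles for the 10 genes described, open squares for other family genes, and red (higher) or blue (lower) for an adjusted p under 0.05. S100a4 has the highest value at 1.51, 6 genes are red, S100a2 is blue and lies furthest to the left at -1.36, and Anxa1 is the leftmost of the 10 at -0.72.

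Most S100 genes lie in a cluster on mouse chromosome 3, where called genes stand beside genes that were not called. From *S100a1* at chr3:90511034-90514392 the genes run *S100a13*, *S100a14*, *S100a16*, *S100a3*, *S100a2*, *S100a4*, *S100a5*, *S100a6*, *S100a7a*, *S100a8* and *S100a9*, and *S100a11* and *S100a10* follow about 3009 and 3044 kb from the start of *S100a1*. Of these, *S100a13*, *S100a4*, *S100a11* and *S100a10* were called higher, *S100a14*, *S100a16* and *S100a3*, between *S100a13* and *S100a4*, were not called, and *S100a5* and *S100a6*, the next genes after *S100a4*, had log2 fold changes of -0.23 and 0.44. *S100a2*, the gene before *S100a4*, was on no list and is named after its values were seen. It was lower, at 3.74, 6.41, 11.6 and 8.23 TPM in *Mir140*-null against 15.4, 25.0, 21.4 and 17.6 TPM in wild-type (log2 fold change -1.36, SE 0.30, limma adjusted p = 0.0214), and lost its call in 4 of 8 fits that each left out 1 library (adjusted p 0.0503 to 0.0591), namely without wild-type replicate 2, 3 or 4 or the library labelled *Mir140*-null replicate 2. The annotation of *S100a3* spans *S100a2*, and reads in shared exons may be assigned to either gene.

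**Figure D5:**
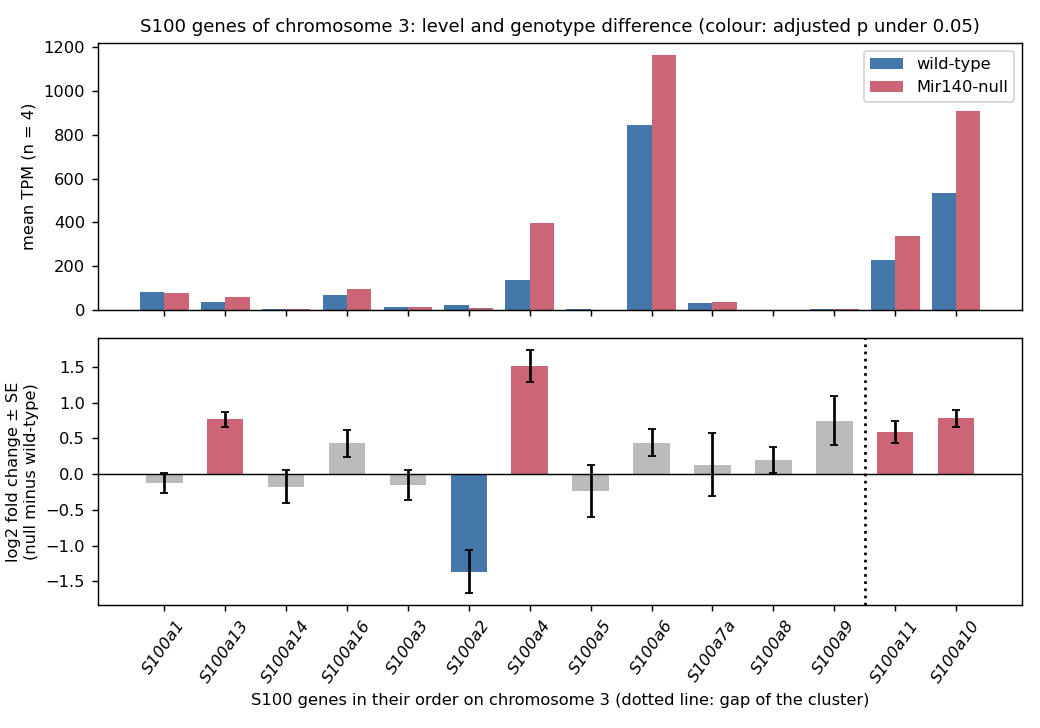
S100 genes in their order on chromosome 3 (x axis; the dotted line marks the gap before S100a11 and S100a10), with the mean TPM of 4 wild-type (blue) and 4 Mir140-null (red) libraries in the upper panel and the log2 fold change ± SE in the lower panel, coloured where the adjusted p was under 0.05. S100a13, S100a4, S100a11 and S100a10 are coloured above 0, S100a2 is coloured below 0, and grey genes lie between them.

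Proteins that bind annexins or S100 proteins were read from a list of 12 genes, of which 8 were tested, 1 was higher and 1 lower, near the 10.5% and 6.4% of all tested genes. *Plat*, tissue plasminogen activator, which binds annexin A2 and S100A10 at the cell surface, had 17.1, 19.0, 27.3 and 25.9 TPM in the wild-type and 7.20, 7.23, 15.4 and 12.4 TPM in *Mir140*-null. It fell in all 4 null libraries to below the wild-type range (log2 fold change -1.05, SE 0.27, adjusted p = 0.0344), and replicates 1 and 2 were the lowest, as for the fibroblast markers. With the fibroblast covariate it was -0.71 (adjusted p = 0.0694). The *Plat* call was lost in 5 of 8 fits that each left out 1 library (adjusted p 0.0574 to 0.0873), kept without wild-type replicate 1 or *Mir140*-null replicate 3 or 4, and lost without *Mir140*-null replicates 1 and 2 (-0.63, adjusted p = 0.162). *Pitpnm1*, a phosphatidylinositol transfer protein, rose from a range of 3.51 to 6.50 TPM to 6.29 to 14.4 TPM (log2 fold change 0.96, SE 0.26, adjusted p = 0.0385), a call lost in 6 of 8 fits that each left out 1 library (adjusted p 0.0740 to 0.0955) and kept without wild-type replicate 2 or *Mir140*-null replicate 3. Not called were *Ahnak*, the giant scaffold of annexin A2 and S100A10 (log2 fold change 0.31), the membrane repair gene *Dysf* (0.15), *Pdcd6*, which encodes ALG-2, a partner of annexin A11 (0.30), and the calpain genes *Capn1* (0.46), *Capn2* (0.40) and *Capns1* (0.14). The receptors *Fpr1* and *Fpr2*, which annexin A1 binds, and *Ager*, the receptor for S100 proteins, were at most 0.661 TPM in any library, and together with *Trpv6* were not tested.

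Among 10 genes of matrix vesicles and mineralization, 9 were tested, 3 were higher and 1 lower, against 10.5% and 6.4% of all tested genes. *Slc20a1* and *Slc20a2*, which import phosphate, had log2 fold changes with 95% intervals of 0.25 to 1.21 and 0.49 to 1.51 (limma adjusted p = 0.0482 and 0.0226), and that of *Ank*, which exports pyrophosphate, was 0.35 to 1.52 (adjusted p = 0.0403). In these 3 genes every null library was above every wild-type library, against 15.7% of all tested genes. *Slc20a1*, the most abundant of them, was at 259, 262, 230.1 and 271 TPM in the wild-type and 531, 576, 303 and 347 TPM in *Mir140*-null. *Mgp*, the inhibitor of calcification matrix Gla protein, fell from 1952 ± 286 to 1235 ± 279 TPM (SD, n = 4; log2 fold change -0.67, SE 0.18, adjusted p = 0.0362), with the library labelled *Mir140*-null replicate 2 at 1635 TPM inside the wild-type range. These calls were fragile: leaving out 1 library ended that of *Slc20a1* in 7 of 8 fits (kept without *Mir140*-null replicate 3), *Ank* in 7 (kept without wild-type replicate 2), *Mgp* in 6 (kept without wild-type replicate 1 or the library labelled *Mir140*-null replicate 2) and *Slc20a2* in 4 (without wild-type replicate 3 or 4, *Mir140*-null replicate 1 or the library labelled *Mir140*-null replicate 2), at adjusted p values up to 0.111. *Alpl*, tissue non-specific alkaline phosphatase, was at 6.49, 5.76, 16.4 and 4.78 TPM in the wild-type and 1.52, 1.54, 7.51 and 4.62 TPM in *Mir140*-null and was not called (log2 fold change -1.01, adjusted p = 0.185), and neither were *Enpp1* (0.12), *Phospho1* (-0.22), *Spp1* (0.07) and *Smpd3* (-0.17).

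Of 11 other cytosolic calcium binders, 8 were tested, 1 was higher and 0 lower in limma, against 10.5% and 6.4% of all tested genes, with 1 lower at an unadjusted p under 0.05. *Efhd2*, an actin-binding EF-hand protein, rose from 53.0, 75.2, 58.9 and 72.1 TPM to 139, 138, 97.8 and 115 TPM (log2 fold change 0.91, SE 0.16, adjusted p = 0.0123). The *Efhd2* call was kept in all 8 fits that left out 1 library and in 19 of 20 alternatives (highest limma adjusted p = 0.0795). *Calm3*, a calmodulin gene, was at 96.5, 72.7, 84.1 and 79.8 TPM in the wild-type and 32.7, 45.0, 64.5 and 62.8 TPM in *Mir140*-null, below the wild-type range in every null library (log2 fold change -0.73, adjusted p = 0.0536). It passed the threshold without *Mir140*-null replicate 3 (adjusted p = 0.0410) or 4 (0.0495). *Calm2*, another calmodulin gene, was at 0.29 and was not called, and neither were *Sri* (-0.05), *Pef1* (0.40), *Chp1* (-0.11) and *Cib1* (0.15).

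For the most abundant annexin and S100 gene of the 10, the most similar profiles were taken among tested genes with a mean of at least 5 TPM over the 8 libraries, by the mean absolute difference of log2 values, each gene centred on its own mean of the 8 libraries. Nearest to *Anxa5* were *Cdc42ep5* (0.0396), *Krcc1* (0.0446) and *Macf1* (0.0449), where the median over 9467 genes was 0.279. Nearest to *S100a4* were *Tnfrsf11b*, which encodes osteoprotegerin (0.194), the Notch ligand *Dll1* (0.222) and *Tmem51* (0.235), where the median was 0.727. *Tnfrsf11b* had a mean of 23.7 TPM in the wild-type and 65.1 TPM in *Mir140*-null, and *Dll1* 3.72 and 11.2 TPM. The likeness is a description of these 8 libraries, chosen on the values themselves.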

How the data were processed

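Poly(A) RNA of rib chondrocytes was sequenced as stranded single-end reads. The authors used Salmon with the mm10 transcriptome and deposited TPM per Ensembl gene, which sum to 1000000 in each library. FastQC 0.11.7 and DESeq2 are named in the submitters' processing notes, and the Salmon version is not given in the sources used here. The TPM carry no counts, so depth behind a value is unknown, no counting interval was computed, and the DESeq2 and RUVSeq analysis of the study could not be the test. The 540 repeated lines per library were counted once. GENCODE M21 gave positions and 3′UTRs, and RefSeq gave promoters and the miRNA.

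Samples were grouped by the genotype in their titles. The filter kept genes that reached 0.5 TPM in 4 or more of the 8 libraries. The test was limma 3.58.1 under R 4.3.3 (log2(TPM + 1), trend, genotype only, two-sided, Benjamini-Hochberg over 17177 genes, threshold 0.05). Python 3.11.15, pandas 2.3.3, NumPy 2.4.6 and matplotlib 3.10.9 did the rest. The fit was tested on simulated data. All 10 genes were named, and of the other lists each tested gene but 1, which is not reported here. The genes, lists and markers (11 cell type lists) were chosen with earlier results of these data known. Alternatives were a pseudocount of 0.1, no filter, a mean of 5 TPM, median-ratio and quantile scaling, removal of mitochondrial genes, a replicate block, 1 factor of unwanted variation from residuals (by singular value decomposition), sample weights, and libraries left out. Leaving out *Mir140*-null replicates 3 and 4 and the fibroblast covariate were added after seeing the data.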

Additional observations from a re-analysis of the deposited data

Results flagged for a closer look

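Within each group of 4 libraries, the gap between the most extreme library and its nearest neighbour was compared with the range of the group for each named gene, by Dixon's 95% critical value. Of 104 groups examined, 6 (5.77%) had a library that stood apart, where chance gives about 1 in 20. All 6 were in wild-type, and 4 of them were the lowest value in replicate 1. *Anxa2* was at 267 TPM in wild-type replicate 1 and 413 to 428 TPM in the other 3, and without that library its log2 fold change was 0.10 in place of 0.26, not called either way. In the same library *Capn2*, a calpain gene, was at 81.6 TPM (others 117 to 119 TPM), *Cib1*, an EF-hand gene, at 14.6 TPM (others 19.1 to 19.9 TPM) and *Sox6* at 49.9 TPM (others 88.2 to 92.0 TPM). *Alpl* was highest in wild-type replicate 3 at 16.4 TPM (others 4.78 to 6.49 TPM), and *Enpp1*, which makes pyrophosphate, was highest in wild-type replicate 2 at 59.2 TPM (others 43.8 to 45.5 TPM).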

How the results depend on the processing

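*S100a4* kept its call in all 20 alternatives. The number of the 10 genes called higher was 2, and 3 (*S100a4*, *Anxa11* and *Anxa8*) in the 5 settings where *Anxa8* passed, and 1 (*S100a4* alone) with no filter, quantile normalization, the replicate block, *Mir140*-null replicates 1 and 2 left out, or the fibroblast covariate; leaving out 1 library gave 1 to 2. The number called lower was 0, and 2 (*Anxa1* and *Anxa6*) with 1 factor of unwanted variation or *Mir140*-null replicates 3 and 4 left out; leaving out 1 library gave 0 to 0. In these 2 settings *Anxa1* was at -0.72 (limma adjusted p = 0.0336) and -1.36 (0.0338), and *Anxa6* at -0.37 (0.0146) and -0.66 (0.0129). *Anxa8* passed with a mean of 5 TPM (0.64, limma adjusted p = 0.0467), median-ratio scaling (0.68, 0.0328), no mitochondrial genes (0.70, 0.0414), the factor (0.64, 0.0384) and sample weights (0.60, 0.0463). *Anxa11* failed with no filter (0.74, 0.123), quantile normalization (0.57, 0.0593), the block (0.74, 0.0713), replicates 1 and 2 left out (0.60, 0.200) and the covariate (0.59, 0.111), and over single left-out libraries ran from 0.56 to 0.84. The other family genes called higher, 4 in all, numbered 2 with no filter, 2 with the replicate block, 7 with the factor, 1 without *Mir140*-null replicates 1 and 2, 2 without replicates 3 and 4, and 2 to 4 without 1 library. Of all tested genes, 1797 higher became 764 with no filter, 671 with the block, 357 and 993 with replicates 1 and 2 left out and the covariate, and 779 to 1553 without 1 library. The 1100 lower became 349, 454, 210 and 456 in the same settings, 605 with a mean of 5 TPM, 2016 with the factor, 2212 without replicates 3 and 4, and 419 to 1214 without 1 library. The causes were not tested. Among the listed annexin, S100, partner, mineralization, calcium-binder and SOX genes, no called gene reversed in these alternatives. Libraries with the same number did not deviate together (r = 0.03, 0.02, 0.07, -0.01 across genes), and not every library correlated best with its own number. These values show no pairing by number but cannot exclude it. The replicate block gave 671 higher and 454 lower genes. With TPM alone, counting error of low genes such as *S100a8* could not be judged.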

Other observations

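Small RNA genes lie inside some of these genes and were not compared. For them only means are given, without the spread between libraries, and the libraries were made from poly(A) RNA, not small RNA. *Mir3109*, inside *Anxa2* on the same strand, had a mean of 65.2 TPM in the wild-type and 22.4 TPM in *Mir140*-null, and *Mir7009*, inside *Anxa5*, 12.9 and 31.1 TPM. They lie within the annotated span of their hosts, whose means were 380.2 ± 75.6 and 454 ± 96.1 TPM for *Anxa2* and 551 ± 35.2 and 614 ± 100.2 TPM for *Anxa5* (SD, n = 4). *Gm16144*, antisense to *Anxa2*, was at 2.05 and 2.31 TPM.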
